A study of Drosophila melanogaster with 2 samples.

Results

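Cluster 1 of the circulating hemocytes holds 84 cells of 381 that the deposited annotation describes, and of 460 annotated cells in the whole series. The members are the cells to which the authors' clustering of circulating cells gave the number 1. They come from w1118 larvae (52 cells) and from larvae with RasV12 tumors of the salivary gland (32 cells), and none comes from p35;RasV12 larvae. They were compared with the 296 other circulating cells that carry a genotype.

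Plasmatocytes are the macrophage-like blood cells of Drosophila larvae. They engulf bacteria and dying cells through Nimrod and scavenger receptors, secrete basement membrane proteins such as collagen IV, and crawl by remodelling actin. Larval plasmatocytes divide in circulation and at sessile sites under the skin, and at the onset of metamorphosis the steroid hormone ecdysone makes them motile and phagocytic through a cascade of nuclear receptors and transcription factors.

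The study asked how hemocytes differ between larvae with and without gland tumors. RasV12, an always active form of the small GTPase Ras, was expressed from a UAS transgene under BeadexMS1096-Gal4, which drives expression in the salivary gland, alone or together with p35, a baculovirus inhibitor of effector caspases. The labels list these lines together with w1118, with w1118;p35 and with a BeadexMS1096-Gal4; EaterDsRed stock, without stating which cross gave which cell. The study selected circulating hemocytes by their expression of Eater, a receptor specific to plasmatocytes, so that plasmatocyte markers were to be found in every group. Hemocytes themselves are not the tissue in which the transgenes are meant to act, and no value here shows how far a driver acts in them. For each genotype 10 larvae were bled and pooled, and single hemocytes were sorted into a 384-well plate for Smart-seq2, a full-length cDNA method without molecular identifiers. Each genotype is therefore 1 pool, no test between conditions was possible, and every difference below is a description of these cells. The age and the sex of the larvae are not given in the sources used here.

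Cells over 10% mitochondrial reads or under 200 genes were dropped, and all 84 members and 291 other cells remained (73 w1118, 94 RasV12 and 124 p35;RasV12). Members held a median of 588218 reads (65948 to 991181) and the other cells one of 620715 (2129 to 1149700). The median member had reads of 4596 genes and the median other cell of 4568, and when cells were thinned to 420000 reads, which left out 10 members and 31 other cells, the medians were 4596 and 4472. Mitochondrial reads took a median of 1.25% in members and 1.60% in other cells. The 3 genotypes occupied separate columns of the plate (w1118 columns 1 to 8, RasV12 columns 9 to 16 and p35;RasV12 columns 17 to 24), so that genotype and plate position cannot be told apart. Members lay in all 16 rows of the plate, with 2 to 9 per row, in all 8 w1118 columns (1 to 11 per column) and in all 8 RasV12 columns (3 to 6 per column). No cell name was shared between the circulating and the gland-attached tables.

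Cluster 1 took up 52 of 125 w1118 cells, which is 41.6% (95% Clopper-Pearson interval 32.9 to 50.8%), and 32 of 126 RasV12 cells, which is 25.4% (18.1 to 33.9%). It held 0 of 124 p35;RasV12 cells, for which the same interval reaches up to 2.93%. These intervals cover the counting of cells from 1 pool of larvae per genotype and not the spread between larvae. The other w1118 cells lay mostly in cluster 3 (42 cells) and cluster 4 (20 cells), whereas the other RasV12 cells lay mostly in cluster 0 (57 cells), cluster 2 (20 cells) and cluster 4 (16 cells). The comparison group therefore has a different make-up in each genotype, and for many genes the values within w1118 and within RasV12 are given side by side. Values given without a genotype cover all members against all other cells.

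**Figure D1:**
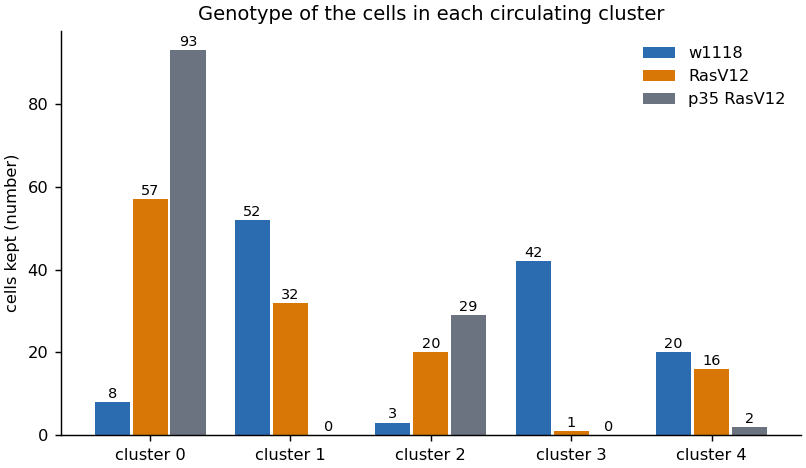
Number of kept cells (vertical axis) of each genotype in each circulating cluster (horizontal axis), 1 bar per genotype. Cluster 1 holds 52 w1118 cells, 32 RasV12 cells and no p35;RasV12 cell, while cluster 0 holds 93 p35;RasV12 cells.

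The members carried the plasmatocyte markers, most of them at levels below those of the other cells. Levels are given in CPM, the share of a gene in the summed reads of a group or cell scaled to a common total, with the lowest, median and highest single cell, and were not divided by gene length, so they compare a gene between cells and not genes with each other. Hml (3L:13846054-13860001 in Dm6), which encodes the clotting protein hemolectin, was read in all 84 members. Its levels in single cells were 68.8, 1146 and 3429 CPM in w1118 members and 3.98, 3343 and 14461 CPM in other w1118 cells. In RasV12 they were 6.53, 588 and 1932 CPM in members and 21.1, 9154 and 14877 CPM in other cells. Summed over cells, Hml was lower in cluster 1 in both pools, and only 3 of 94 other RasV12 cells lay at or below the highest RasV12 member, while the w1118 groups overlapped. NimC1, a phagocytic receptor and pan-plasmatocyte marker, stood at 1393 against 1938 CPM in w1118 and 1238 against 2485 CPM in RasV12, and the single cells of both groups overlapped widely. The GATA factor srp, needed for blood cell fate, was the 1 gene of the plasmatocyte list above the other cells (1213 against 659.9 CPM).

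Of the 8 plasmatocyte markers listed, all were measured, none was 2-fold higher and 6 were 2-fold lower in cluster 1 (Hml, Pxn, Col4a1, vkg, eater and He), with a median log2 ratio of -1.32, where 17.8% of all genes tested were lower (below). By genotype the list had 0 higher and 2 lower within w1118 (median -0.74) and 1 higher and 7 lower within RasV12 (median -1.71), and the 2 lower within w1118 were Hml and Pxn. Summed, they took 10064 CPM in members (3249.9 to 18350.1 in single cells) and 28559.9 CPM in other cells (2336 to 47340). Against cluster 3 alone none of the 8 was 2-fold higher and 2 were lower (median -0.58), where 5.84% of all genes tested were lower. The 5 crystal cell markers summed to 18.6 CPM in members, with 3 of the 5 at 0 reads, and to 340.1 CPM in other cells. The median other cell had 1.19 CPM of them and the highest 75273.6 CPM. The 5 lamellocyte markers summed to 541 against 468 CPM in w1118 and 536 against 391 CPM in RasV12, and to 1226 CPM in p35;RasV12 cells, where the highest cell had 29096 CPM. In members most of that sum came from mys, an integrin chain that plasmatocytes also express (474 CPM). PPO3 (25.8 CPM in members) was higher in members, with log2 ratios of 1.60 within w1118 and 2.07 within RasV12. ItgaPS4 (1.35 CPM in members) was also higher (4.85 and 3.12), and Treh (38.0 CPM in members) was lower (-0.97 and -2.34). The defining marker atilla was near 0 in all w1118 and RasV12 groups (0.0647 against 0.0410 CPM in w1118 and 0 against 0.0184 CPM in RasV12) and at 253 CPM in p35;RasV12 cells. All 10 salivary gland markers were at 0 reads in members, and the 8 fat body markers summed to 43.3 against 51.8 CPM in w1118 and 78.6 against 41.2 CPM in RasV12. The members were thus plasmatocytes by their markers, with Hml lower and, as described next, Dtg higher than in the other cells.

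Dtg, named as a target gene of the BMP ligand Dpp and the third marker given for the cluster, set the members apart in RasV12 more than in w1118. Dtg (3R:12648058-12652910) was read in all 84 members, at 346, 2629 and 5253 CPM in w1118 and 1084, 3424 and 6252 CPM in RasV12. The other w1118 cells ranged over 0, 350.5 and 5509 CPM, so that 37 of 73 reached the lowest w1118 member. Of the other RasV12 cells, 54 of 94 had no Dtg read and 1 reached the lowest RasV12 member, and that cell was the single RasV12 cell of cluster 3. The p35;RasV12 cells stood at 0, 0 and 469.7 CPM. The highest of them was the shallowest kept cell (2129 reads), where 469.7 CPM is 1 read, and the next highest stood at 143 CPM. Summed over cells, Dtg stood at 2619 against 833 CPM in w1118 and 3612 against 5.27 CPM in RasV12, a log2 ratio of 1.65 [1.63, 1.67] and 9.42 [9.25, 9.59]. All members against cluster 3 alone gave a log2 ratio of 1.19. The brackets are exact 95% intervals for the counting of reads. Reads of amplified cDNA are not independent molecules, so the intervals and the floor of 3 reads used for groups with fewer reads cover counting error only.

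**Figure D2:**
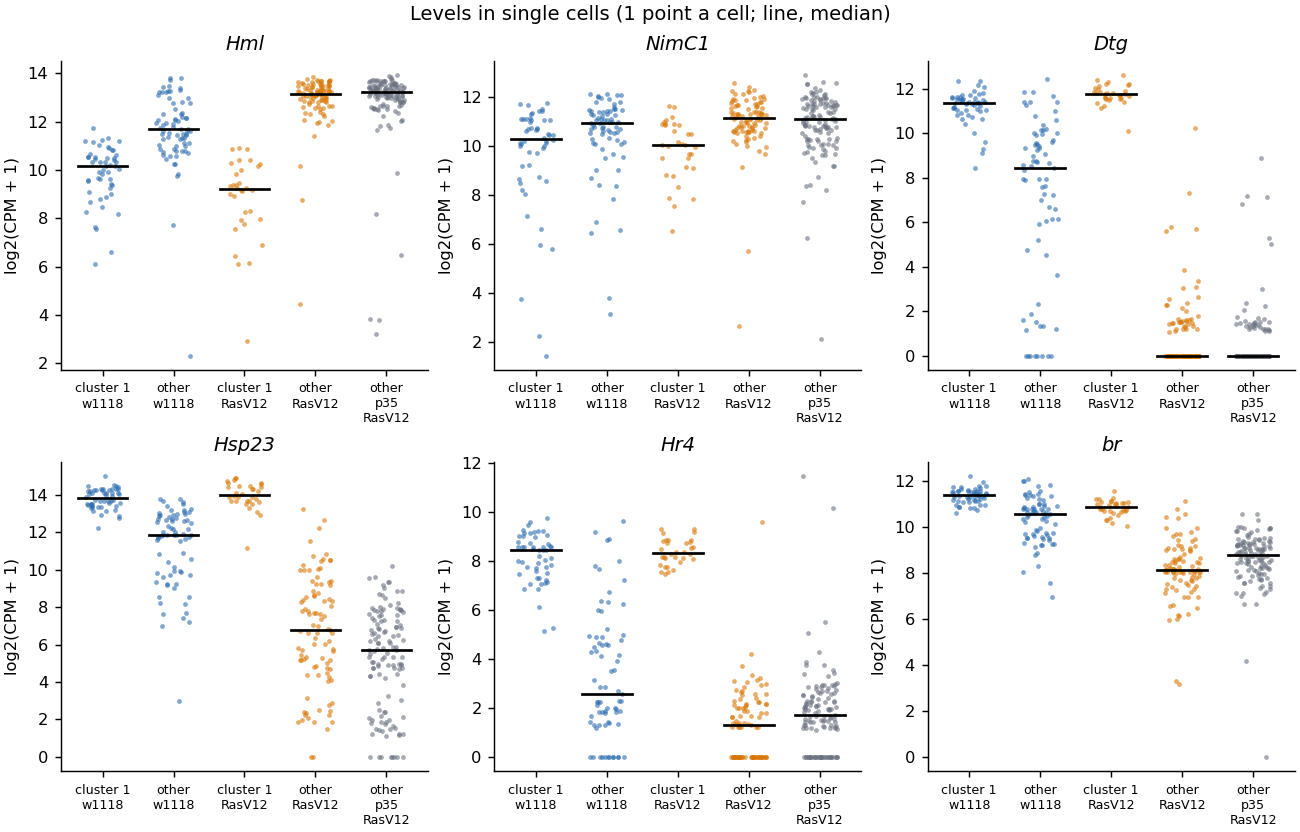
Levels of 6 genes in single cells on a log scale, log2(CPM + 1), 1 point per cell with the median as a line, for members and other cells of w1118 and RasV12 and for p35;RasV12 cells. Dtg, Hsp23 and Hr4 are high in nearly all members and low in most other RasV12 cells, and other w1118 cells spread between these levels.

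Across the 5186 genes with at least 20 CPM over all kept cells and a read in at least 10% of them, 262 were at least 2-fold higher in cluster 1 than in the other circulating cells (5.05%) and 923 at least 2-fold lower (17.8%). The median log2 ratio of all genes tested was -0.26, and the higher genes took 26.1% of reads in cluster 1 and 7.99% in other cells. With TMM factors, which centre the genes, the median moved by 0.26 and the split became 407 higher and 667 lower, that is 37.9% higher among genes past 2-fold where the main scaling gave 22.1%. Log2 ratios below are to be read beside the median of -0.26. Cluster 1 was itself defined from the expression of these genes, so that the counts describe it and test nothing. The filter was set over all kept cells, most of which were not members. Genes high in members alone could therefore fail it where genes high in the other cells passed.

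The direction held in both genotypes for most of these genes. Of the 262 higher genes, 260 were above the other cells in w1118 and in RasV12, and of the 923 lower genes, 897 were below them in both. Within w1118 alone 116 genes were 2-fold higher (2.24%) and 567 lower (10.9%). Within RasV12 alone the numbers were 382 (7.37%) and 1139 (22%), and 97 genes were 2-fold higher in both (1.87%) and 488 lower in both (9.41%). Of the 262 higher genes, which were chosen against cells that come mostly from the tumor genotypes, 254 had the larger ratio within RasV12. Their median log2 ratio was 0.83 within w1118 and 1.94 within RasV12.

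Single clusters gave different counts. Against cluster 3 alone 100 genes were 2-fold higher (1.93%) and 303 lower (5.84%), and against cluster 0 alone 365 were higher (7.04%) and 1000 lower (19.3%). Against cluster 2 the numbers were 458 (8.83%) and 1283 (24.7%), and against cluster 4 they were 254 (4.9%) and 733 (14.1%). Only 41 genes were 2-fold above each of the other clusters (0.791%), and 251 were 2-fold below each (4.84%).

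**Figure D3:**
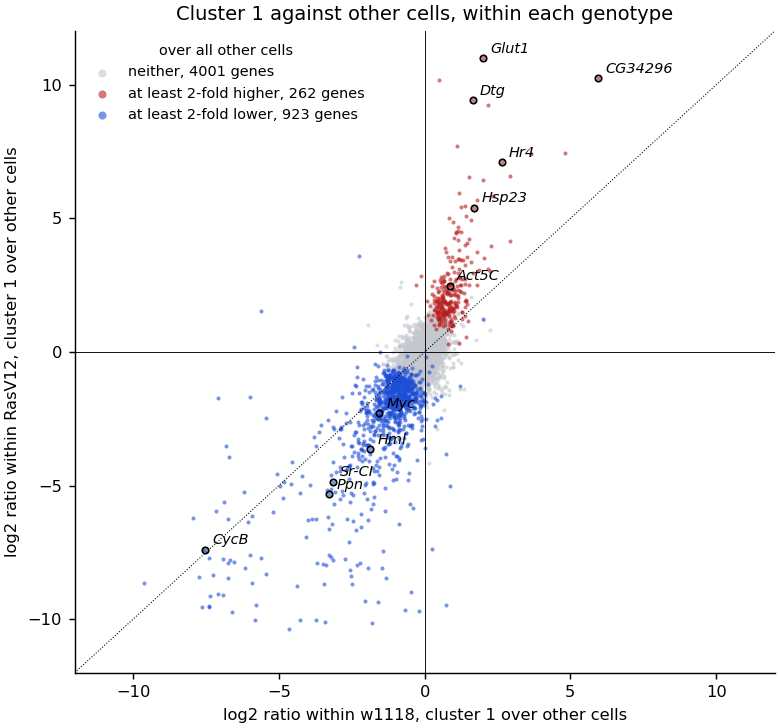
Log2 ratio of each of the genes tested, cluster 1 over the other cells within w1118 (horizontal axis) and within RasV12 (vertical axis), coloured by the call over all other cells, with the diagonal dotted and a few genes named. Nearly all of the 262 higher genes lie in the upper right and above the diagonal, and 897 of the 923 lower genes lie below 0 on both axes.

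The 12 highest genes by the naming rule were CG34296, NLaz, Reck, CREG, Hr4, Jabba, CG4267, Hsp26, CG42867, NimC2, Glut1 and Dtg, with log2 ratios from 7.74 to 3.71. The highest, CG34296 (3R:29722538-29723013), stood at 1051 against 17.1 CPM in w1118 and 1117 against 0.919 CPM in RasV12, and it was read in 70.2% of members and 13.1% of other cells. Its level was uneven among members, at 0, 24.0 and 8974 CPM in w1118 and at 0, 264 and 7715 CPM in RasV12, as lowest, median and highest. NLaz (2L:1359837-1361821), a secreted lipocalin of the apolipoprotein D family that binds small lipids, was read in 58 of 84 members and 16 of 291 other cells, and stood at 110.5 against 3.96 CPM in w1118 and 168 against 0.956 CPM in RasV12. Both genes were strongly present in some members and missing from others, in both genotypes.

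Glut1, a glucose transporter, was read in 46 of 52 w1118 and 27 of 32 RasV12 members, and in 4 of 94 other RasV12 cells, none of which exceeded 1.84 CPM. Summed over cells it stood at 148 against 37.1 CPM in w1118 and 149.7 against 0.0735 CPM in RasV12. Jabba, a protein of lipid droplets, stood at 343 against 44.7 CPM in w1118 and 173 against 9.80 CPM in RasV12, and its ratio between RasV12 and w1118 members (-0.99) was within 2-fold. Reck, known in mammals as a membrane-anchored inhibitor of matrix metalloproteases, stood at 165 against 13.0 CPM in w1118 and 193 against 1.14 CPM in RasV12. CREG, a glycoprotein of the endosome and lysosome in mammals, stood at 111 against 14.4 CPM in w1118 and 175 against 1.84 CPM in RasV12. CG4267 stood at 109.7 against 24.3 CPM in w1118 and 101 against 0.165 CPM in RasV12, and CG42867 at 132 against 38.0 CPM in w1118 and 309 against 5.92 CPM in RasV12. For all 4, other w1118 cells lay between members and other RasV12 cells.

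The small heat shock protein genes were higher in cluster 1 in both genotypes. These chaperones hold unfolding proteins without ATP, and in fly tissues some of them are also switched on by ecdysone without heat. Of the 8 genes listed, 3 passed the filter and all 3 were 2-fold higher, also within each genotype, with a median log2 ratio of 3.48, where 5.05% of all genes tested were higher, and 3 of the listed genes had no read in any member. Hsp23 (3L:9381882-9382765) stood at 4813, 14453 and 32919 CPM in w1118 members and 2265, 16588 and 30676 CPM in RasV12 members. Other cells stood at 6.81, 3779 and 14174 CPM in w1118 and 0, 108 and 9661 CPM in RasV12. Of 94 other RasV12 cells 4 reached the lowest RasV12 member, and of 73 other w1118 cells 29 reached the lowest w1118 member. The p35;RasV12 cells stood at 0, 50.8 and 1182 CPM. The log2 ratio was 1.70 [1.69, 1.70] within w1118 and 5.40 [5.38, 5.42] within RasV12.

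Hsp27 followed Hsp23, at 3027 against 1343 CPM in w1118 and 3450.2 against 242 CPM in RasV12, with 1 of 94 other RasV12 cells at or above the lowest RasV12 member. Hsp26 stood at 708 against 139.9 CPM in w1118 and 545 against 9.58 CPM in RasV12 and was read in 83 of 84 members. The 3 genes did not differ by 2-fold between RasV12 and w1118 members. Of these 3 genes, 2 were 2-fold higher against cluster 3 alone, with log2 ratios of all 3 from 0.75 to 1.61. Over all genes tested 1.93% were higher against cluster 3. The 8 listed genes summed to 20039.7 CPM in members, 9170.5 CPM in cluster 3 and 306.4 CPM in cluster 0. Much of the difference from the other cells was thus shared with cluster 3. Hsp22, a mitochondrial small heat shock protein, had no read in any kept circulating cell.

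Other chaperones differed less. Of 15 tested, 2 were 2-fold higher and none lower, with a median log2 ratio of 0.22, where 5.05% of all genes tested were higher and 17.8% lower. The 2 were Hsc70-3, the BiP chaperone of the endoplasmic reticulum (4395 against 3049 CPM in w1118 and 5135 against 1424 CPM in RasV12), and Hsp83, the fly Hsp90 (4800.5 against 3871 CPM in w1118 and 3241 against 1591 CPM in RasV12). Within w1118 alone none of the 15 was past 2-fold. Hsp68, a stress-inducible chaperone, was read in 31 of 84 members and stood at 31.3 against 24.8 CPM in w1118 and 20.3 against 33.9 CPM in RasV12, above the other cells in w1118 and below them in RasV12. The mitochondrial chaperones Hsp60A and Hsc70-5 were 2-fold lower within RasV12 alone, Hsp60A at 292 against 468 CPM in w1118 and 281 against 618 CPM in RasV12 and Hsc70-5 at 216 against 279.9 CPM in w1118 and 166 against 333 CPM in RasV12.

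Some genes of the ecdysone response were higher in cluster 1. Ecdysone binds the heterodimer of EcR and usp, which switches on early genes such as br, Eip74EF and Eip75B and then further nuclear receptors. Of 23 genes listed, 13 were tested, 6 of these were 2-fold higher and none was 2-fold lower, with a median log2 ratio of 0.94, where 5.05% of all genes tested were higher. By genotype there were 4 higher and 0 lower within w1118 (median 0.72) and 5 higher and 1 lower within RasV12 (median 0.84). The receptor genes themselves were not among the 6: usp stood at 51.0 against 60.5 CPM in w1118 and 49.0 against 47.7 CPM in RasV12, and EcR, the 1 gene lower within RasV12, at 69.4 against 105 CPM in w1118 and 24.5 against 99.7 CPM in RasV12. Among listed genes that did not pass the filter, ftz-f1 stood at 0.442 against 15.0 CPM and was lower in both genotypes (log2 ratios -3.61 and -5.08). Eip93F (9.47 against 0.393 CPM) and ImpE3 (10.1 against 1.41 CPM) were higher in both. The rest of those genes stood at 7.72 CPM or less in members and in other cells.

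Hr4 (X:1941940-2007956), a nuclear receptor of the cascade, was read in all 84 members, at 34.5, 347 and 871 CPM in w1118 and 174, 320.5 and 636 CPM in RasV12. Other cells stood at 0, 4.92 and 798 CPM in w1118 and 0, 1.47 and 775 CPM in RasV12, and 15 of 73 and 1 of 94 reached the lowest member of the genotype. The other 5 were Eip78C, a nuclear receptor (164 against 61.3 CPM in w1118 and 184 against 5.39 CPM in RasV12), MsrA, a methionine sulfoxide reductase found as an ecdysone-induced gene (822 against 184 CPM in w1118 and 610.4 against 71.6 CPM in RasV12), E23, an ABC transporter that dampens the response (151 against 70.5 CPM in w1118 and 97.0 against 0.459 CPM in RasV12), br and Eip75B. The zinc finger gene br stood at 1556, 2647 and 4711 CPM in w1118 members and 1055, 1867 and 3020.4 CPM in RasV12 members. In other cells br stood at 121, 1509 and 4353 CPM in w1118 and 7.93, 279 and 2222 CPM in RasV12. Of other RasV12 cells 5 of 94, and of other w1118 cells 35 of 73, reached the lowest member.

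Differences of 2-fold against cluster 3 were fewer: 2 of the 13 ecdysone genes were higher against cluster 3 alone, Hr4 (1.93) and MsrA (1.71), while br (0.14), Eip75B (0.09) and E23 (0.15) had nearly the level of cluster 3. Over all genes tested 1.93% were higher against cluster 3. RasV12 members held less Eip75B (171 CPM) and less EcR (24.5 CPM) than w1118 members (439 and 69.4 CPM), the 2 genes of the list past 2-fold in that comparison.

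Of 24 actin and motility genes tested, 9 were 2-fold higher and none lower, with a median log2 ratio of 0.88, where 5.05% of all genes tested were higher. By genotype there were 1 higher and 0 lower within w1118 (median 0.42) and 14 higher and 0 lower within RasV12 (median 1.07), and the 1 higher within w1118 was sn. The summed level was 89289.7 against 58608 CPM in w1118 and 98911 against 29132 CPM in RasV12. In single cells the sum ran from 69752 to 118781 CPM in members and from 9140.0 to 107356 CPM in other cells. The 9 were sn, Act5C, sqh, chic, Act42A, cpb, SCAR, twf and Arpc1. The gene sn, which encodes the actin-bundling protein fascin, stood at 2176 against 912 CPM in w1118 and 2685 against 119.7 CPM in RasV12. The myosin regulatory light chain gene sqh stood at 1054 against 714 CPM in w1118 and 1116 against 359.7 CPM in RasV12, and chic, which encodes profilin, at 5626 against 3990.3 CPM in w1118 and 6522 against 2077 CPM in RasV12. For cpb, a capping protein subunit, SCAR, an activator of the Arp2/3 complex, twf, an actin monomer binder, and Arpc1, an Arp2/3 subunit, the log2 ratio was 0.20 to 0.68 within w1118 and 1.35 to 1.73 within RasV12. For Act5C, a cytoplasmic actin, single cells are given next. Act5C stood at 30448, 42095 and 60058 CPM in w1118 members and 33424, 47271 and 63058 CPM in RasV12 members, and no other RasV12 cell reached the lowest RasV12 member, where the highest had 27227 CPM. In w1118 14 of 73 other cells reached the lowest member. Act5C and Act42A are near-identical in sequence, and reads that align to both could be split or lost in counting, so that their single values are uncertain. Against cluster 3 alone none of the 24 genes was past 2-fold (median 0.28).

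Of 11 integrin adhesion genes tested, 1 was 2-fold higher and 2 were lower, shares of a size with those over all genes (5.05% and 17.8%). The higher one was Pax, the adhesion scaffold paxillin (888 against 582 CPM in w1118 and 1100.3 against 291 CPM in RasV12). The lower ones were Itgbn, an integrin beta chain used in phagocytosis (0.550 against 7.92 CPM in w1118 and 0.0531 against 12.1 CPM in RasV12), and ItgaPS5, an integrin alpha chain. ItgaPS5 stood at 3.85 against 6.17 CPM in w1118 and 0.106 against 127 CPM in RasV12, and was within 2-fold in w1118. The listed genes if, scb and ItgaPS4 did not pass the filter and are not in these counts. Over all members and other cells, if stood at 69.4 against 2.10 CPM and scb at 54.4 against 6.55 CPM. Their log2 ratios were 2.92 and 1.26 within w1118 and 6.08 and 6.70 within RasV12. ItgaPS4 was low in members and stood at 1.35 against 113 CPM when the other cells included p35;RasV12. Within each genotype it was higher in members, with log2 ratios of 4.85 within w1118 and 3.12 within RasV12.

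Of 10 basement membrane and matrix genes, none was 2-fold higher and 5 were lower (median -1.10), where 17.8% of all genes tested were lower. By genotype there were 0 higher and 2 lower within w1118 (median -0.68) and 0 higher and 5 lower within RasV12 (median -1.21), and the 2 lower within w1118 were Ppn and Pxn. They were Ppn, the matrix protein papilin (203 against 1971 CPM in w1118 and 130.1 against 5235 CPM in RasV12), Pxn, a matrix peroxidase, Tig, the integrin ligand tiggrin (log2 ratio -0.86 within w1118 and -2.13 within RasV12), and both collagen IV chains, Col4a1 (2199 against 3697 CPM in w1118 and 1786 against 5866 CPM in RasV12) and vkg (1290.4 against 2138 CPM in w1118 and 1062 against 3238 CPM in RasV12). The laminin chains LanA (0.23), LanB1 (-0.11) and LanB2 (0.52) were within 2-fold. Against cluster 3 alone 1 of the 10 genes was 2-fold lower (median -0.57), where 5.84% of all genes tested were lower. In RasV12 the Col4a1 levels of 4 of 94 other cells fell at or below that of the highest member, and in w1118 those of 50 of 73 did.

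Among 8 Nimrod and Draper genes 1 was higher and 5 were lower (median -1.65), where 5.05% of all genes tested were higher and 17.8% lower. By genotype there were 1 higher and 4 lower within w1118 (median -1.02) and 1 higher and 6 lower within RasV12 (median -2.36). The higher one was NimC2, a Nimrod receptor, read in 74 of 84 members. It stood at 491 against 121 CPM in w1118 and 620.3 against 7.20 CPM in RasV12. The 5 lower ones were the secreted Nimrods NimB1, NimB2, NimB4 and NimB5, with log2 ratios of -1.78 to -1.18 within w1118 and -3.55 to -2.34 within RasV12, and the phagocytic receptor eater. NimB4 stood at 536 against 1214 CPM in w1118 and 197 against 1899 CPM in RasV12. The eater gene stood at 609 against 1108 CPM in w1118 and 241 against 1249 CPM in RasV12, which is within 2-fold in w1118. Cells were selected for Eater (above), so the eater level is not independent of how they were chosen. The engulfment receptor drpr was within 2-fold in both genotypes and went opposite ways, at 349.9 against 273 CPM in w1118 and 236 against 320.4 CPM in RasV12. Against cluster 3 alone 1 of the 8 genes was 2-fold higher and 3 were lower (median -0.78). Over all genes tested these shares were 1.93% and 5.84%.

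Of 4 scavenger receptors tested, the class C receptors Sr-CI (226 against 2016 CPM in w1118 and 179 against 5171 CPM in RasV12) and Sr-CIV (2.85 against 11.4 CPM in w1118 and 3.61 against 107 CPM in RasV12) were lower in both genotypes, while the CD36-like receptors crq (0.37) and pes (0.39) were within 2-fold. Over all genes tested 17.8% were lower. Among the listed receptors that did not pass the filter, emp stood at 35.2 against 4.52 CPM and Sr-CIII at 0.241 against 20.1 CPM. No antimicrobial peptide gene passed the filter, and the 14 listed summed to 0.543 CPM in members and 7.96 CPM in other cells. By genotype the sums were 0.550 against 0.431 CPM in w1118 and 0.531 against 3.86 CPM in RasV12. In p35;RasV12 cells the sum was 15.6 CPM, with a highest cell of 352 CPM.

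Genes of cell division were low in cluster 1. Of 27 cell cycle and replication genes tested, 25 were 2-fold lower and none was higher, beside 17.8% of all genes tested, and the median log2 ratio was -3.48. By genotype there were 0 higher and 21 lower within w1118 (median -2.16) and 0 higher and 25 lower within RasV12 (median -4.10). The list summed to 433 against 1226 CPM in w1118 and to 399.8 against 3073 CPM in RasV12. The mitotic cyclin CycB was read in 7 of 84 members, none above 16.6 CPM. In other cells CycB was read in 13 of 73 w1118, 47 of 94 RasV12 and 71 of 124 p35;RasV12 cells, up to 752 CPM. The Cdc25 phosphatase gene stg, which drives entry into mitosis, was read in 7 members and stood at 1.26 against 16.8 CPM in w1118 and 0.106 against 167 CPM in RasV12. The kinase gene polo stood at 1.68 against 39.8 CPM in w1118 and 6.80 against 209 CPM in RasV12.

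The replication clamp PCNA was read in 11 of 84 members (9.96 against 57.2 CPM in w1118 and 3.98 against 153 CPM in RasV12), the S phase enzyme subunit RnrL stood at 12.4 against 139 CPM, and the helicase genes Mcm2, Mcm3, Mcm5 and Mcm6 had log2 ratios between -4.29 and -2.74. CycA (-0.91) and CycD (-0.22) were within 2-fold. Cluster 3 was low in these genes as well, with a sum of 729 CPM, and against it 14 of the 27 were 2-fold lower and 1 higher. Over all genes tested 5.84% were lower and 1.93% higher against cluster 3.

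Cytosolic ribosomal proteins were a little lower without passing 2-fold for most members of the list: of 83 tested, 3 were 2-fold lower and none higher, the median log2 ratio was -0.59, and the sum was 98109 against 146034 CPM. Over all genes tested 17.8% were lower and 5.05% higher. The 13 genes of the mitochondrial genome that were tested were all within 2-fold (median -0.22, near that of all genes).

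Few genes of the signalling lists were past 2-fold, where 5.05% of all genes tested were higher and 17.8% lower. The median log2 ratio was 0.05 for TGF-beta and BMP, 0.12 for Ras MAPK, -0.55 for JAK STAT and -0.18 for autophagy genes, the last above 0 with TMM factors. Of 12 TGF-beta and BMP genes 1 was 2-fold lower, the ligand mav (8.06 against 34.6 CPM), and the ligand dpp stood at 50.5 against 28.1 CPM. Of 12 Ras MAPK genes 1 was lower, the Ets factor pnt that is activated downstream of the pathway (65.5 against 135 CPM in w1118 and 49.2 against 252 CPM in RasV12), and Ras85D, the endogenous Ras gene, stood at 293 against 247 CPM. Ras85D reads cannot be divided here into those of the transgene and of the endogenous gene. Of 4 JAK STAT genes 1 was lower, the transcription factor Stat92E (89.6 against 233 CPM in w1118 and 103 against 547 CPM in RasV12). Of 15 autophagy genes 1 was higher, Atg7, the enzyme that activates Atg8 and Atg12 (111 against 37.7 CPM).

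**Figure D4:**
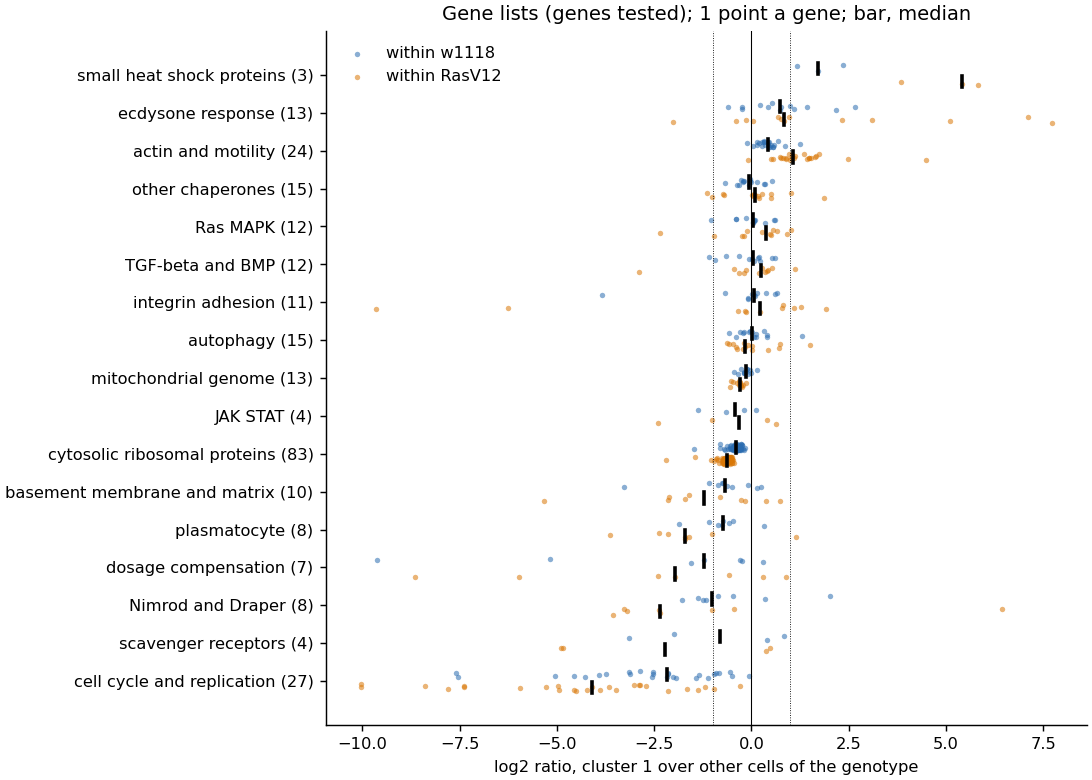
Log2 ratio of each tested gene of a list (1 point per gene; number of genes in parentheses), cluster 1 over the other cells within w1118 (blue) and within RasV12 (orange), with the median of each list as a bar and dotted lines at 2-fold. The medians of small heat shock, ecdysone and actin genes lie above 0 in both genotypes, and those of cell cycle genes below 0 in both.

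The 12 lowest genes by the naming rule were CG17839, Ugt35A1, AOX1, CG8620, Cyp6a17, roX2, Klp67A, CG32816, Eglp4, Acsf2, Cks30A and CG5535. Each had between 1 and 7 reads over all 84 members and 41.1 to 111 CPM in other cells, with log2 ratios between -10.84 [-13.12, -9.30] for CG17839 and -9.41 [-16.30, -8.52] for CG5535. Ugt35A1, a UDP-glycosyltransferase, was read in 2 members and in 64 of 94 other RasV12 cells. AOX1 is an aldehyde oxidase (0.0804 against 98.3 CPM), Cyp6a17 a cytochrome P450 (0.129 against 0.390 CPM in w1118 and 0 against 105 CPM in RasV12), and Acsf2 an acyl-CoA synthetase (0.100 against 74.1 CPM). Klp67A, a kinesin of the mitotic spindle, stood at 0.0647 against 11.8 CPM in w1118 and 0.106 against 87.7 CPM in RasV12, and Cks30A, a Cdk-binding subunit, at 0.141 against 100.1 CPM. All of them except Cks30A and roX2 also stood at 20.6 CPM or less in the other w1118 cells, against 50.4 CPM or more in the other RasV12 cells.

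Fewer genes were past 2-fold between members of the 2 genotypes than between members and other cells of either genotype. The clustering had put cells of alike expression together, so that this order follows in part from it and tests nothing. Between RasV12 and w1118 members 101 genes were 2-fold higher (1.95%) and 223 lower (4.3%), with a median log2 ratio of -0.02. These are 1 pool each, in separate plate columns, so that genotype, pool and plate position cannot be told apart. The 5 highest by the rule were CG34436, CG11050, Gadd45, alpha-Est1 and CG9630. Gadd45, a stress-induced gene that acts upstream of MAP kinases in mammals, stood at 0, 378 and 2007 CPM in RasV12 members and 0, 47.5 and 600.4 CPM in w1118 members, and the 2 groups overlapped. Its log2 ratio was 2.51 [2.45, 2.57], and other RasV12 cells stood at 66.6 CPM. CG34436 stood at 70.0 CPM in RasV12 and 4.59 CPM in w1118 members.

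The 5 lowest were CG14990, CG7900, alpha-Est9, Cyp28a5 and Cyp4ac1, the last 2 being cytochrome P450 genes. CG14990 was read in 32 of 52 w1118 members and in none of 32 RasV12 members, yet in 46 of 94 other RasV12 cells. It was at 79.4 CPM in w1118 members, and with the floor of 3 reads in RasV12 members the log2 ratio was -8.96 or below. Cyp4ac1 stood at 39.5 against 217 CPM in w1118 and 3.66 against 296 CPM in RasV12. CG7900 stood at 13.0 against 15.0 CPM in w1118 and 0.106 against 132 CPM in RasV12. The esterase alpha-Est9 stood at 21.5 against 41.0 CPM in w1118 and 1.27 against 19.0 CPM in RasV12, and Cyp28a5 at 9.31 against 17.2 CPM in w1118 and 0.743 against 64.7 CPM in RasV12. All 5 were thus lowest in RasV12 members among these 4 groups.

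The members varied among themselves in some of their leading genes and little in others. Over 1547 genes with at least 100 CPM in cluster 1, the median coefficient of variation across the 84 cells was 0.516. Dtg (0.382) and Hsp23 (0.377) varied less than that, and Hml (0.704) and NimC1 (0.688) more. Genes were not matched by level for this. Dtg (2995 CPM in members) and Hsp23 (16205 CPM) stood above Hml (1033 CPM) and NimC1 (1335 CPM). The most variable was NLaz (2.51), followed by CG34296 (1.90) and Gs2, a glutamine synthetase (1.80), and the least variable were Act5C (0.160) and eIF4A, a translation initiation helicase (0.155). Between the tenth and the ninetieth percentile of members NLaz ran from 0 to 336 CPM and Act5C from 35952 to 55388 CPM. Across the 84 cells the levels of Hsp23 and Hsp27 went together with a Spearman rho of 0.59 (0.53 over 52 w1118 and 0.61 over 32 RasV12 members), where the cells share a plate, a sort and the scaling to their own total. Of the 7 other pairs examined, all with Dtg, Hml, NimC1, Hr4 or Hsp26 in them, none exceeded 0.21 in absolute value over all members. By genotype the largest were 0.36 for Hsp23 with Hsp26 in w1118 and 0.28 for Hsp23 with Hr4 in RasV12.

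Long noncoding RNAs of dosage compensation, roX1 and roX2, which coat the X chromosome of males in the male-specific complex, were nearly missing from the members. Their summed level reached 500 CPM in 0 of 84 members, which allows a share of up to 3.57%, against 31 of 73 other w1118 cells (42.5%), 42 of 94 other RasV12 cells (44.7%) and 25 of 124 p35;RasV12 cells (20.2%). The highest member stood at 268 CPM, 52 members had no roX read, and 10 lay between 20 and 500 CPM, as did 10 of the 291 other cells. In cluster 3 it was 15 of 43 cells and in cluster 4 28 of 38. Of the 7 genes of the list that were tested 4 were lower, the 2 roX genes and the complex subunits msl-2 (15.0 against 46.2 CPM) and msl-3 (9.77 against 33.9 CPM), while Sxl, the switch gene of female development, was at 101 against 70.0 CPM. Over all genes tested 17.8% were lower. The share of genes 2-fold higher was 4.84% on the X and 4.46 to 5.57% on the large autosome arms. When the other cells were limited to the 193 below 500 CPM of roX, a comparison chosen after the data were seen, 282 genes were 2-fold higher and 953 lower, and 23 of the 24 named genes kept their direction past 2-fold, with roX2 itself the exception. Whether the sex of the larvae had a part in the membership of cluster 1 was not tested.

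**Figure D5:**
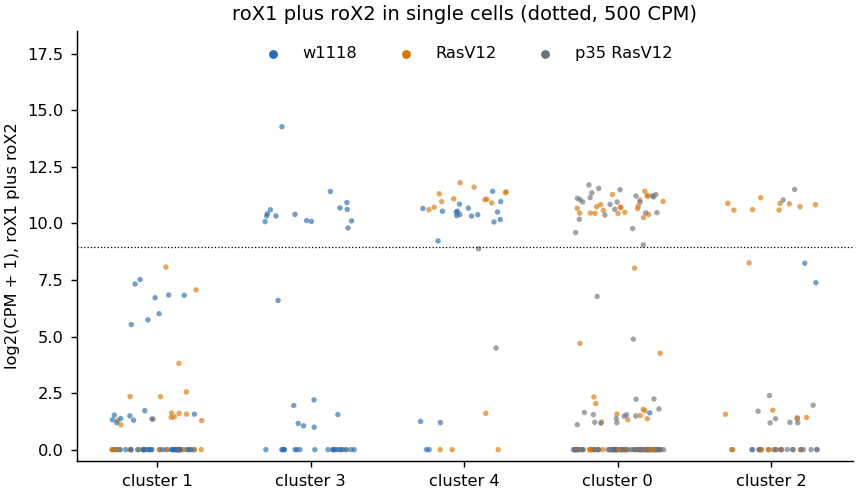
Summed level of roX1 and roX2 in single cells on a log scale, log2(CPM + 1), by cluster, 1 point per cell coloured by genotype, with 500 CPM dotted. No cell of cluster 1 reaches the line, against 15 of 43 in cluster 3 and 28 of 38 in cluster 4.

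Cluster 1 was recovered only in part when the same cells were clustered again with Seurat. At resolution 0.4 on 10 principal components and 2000 variable genes, 60 of the 84 members fell into 1 new cluster of 60 cells (31 w1118 and 29 RasV12), and at resolution 0.2 all 84 fell into a cluster of 127 that also took in the 43 cells of cluster 3. With 5 principal components 79 members came together in a cluster of 81. In none of the 8 runs did the new cluster that held most members include a p35;RasV12 cell. The settings thus changed how many members stayed together (59 to 84) and how many cells of cluster 3 joined them (0 to 43). The cells grouped with the remaining members, and their genotypes, were not examined.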

How the data were processed

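Circulating hemocytes were sequenced as 56-base single reads. Per the labels' processing notes and the file headers, the authors aligned reads with STAR 2.7.2 to Dm6 and counted them per gene with featureCounts 2.0.0 on annotation release 6.37, and the deposited values are raw counts of 17612 genes per cell, without strand or an option for reads with several alignments. The authors also deposited an annotation with genotype, cluster number and a percent of mitochondrial reads, which is 0 in every cell and was computed anew from 37 genes. The name of the cluster column holds a resolution of 0.5, whereas the methods state 0.4. The label of the circulating sample gives salivary gland as tissue and names the w1118 and driver line alone, while its annotation holds 3 genotypes, which were used as annotated, and 3 wells without annotation (866 to 2339 reads) and 1 cell without genotype were left out. Columns of other samples left unused: 0. Per-sample groups of the series are the circulating and the gland-attached sample.

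Cells over 10% mitochondrial reads or under 200 genes were left out. For each group the reads of a gene in all its cells were added and set against the total, as CPM. Ratios have exact 95% counting intervals. For the ratio a group under 3 reads was set to 3, while the interval used the reads as counted. A gene was called past 2-fold among those of at least 20 CPM and a read in at least 10% of cells. With 1 pool per genotype no test was run. Genes named are the 12 highest and 12 lowest log2 ratios among called genes with the same sign in both genotypes and in the mean over cells, no cell holding over 25% of the reads of the higher group, the 5 highest and 5 lowest between genotypes within the cluster, and the members of the gene lists. The members and lists were chosen with earlier results of these data known. Gene names came from a table that matched 17548 identifiers, and 64 had none. A planned search of promoters was not run, since no promoter sequences were used here. No doublet caller was run, as each well was sorted as 1 cell. Alternatives were the mean over cells, leaving out the highest cell, other filters on cells and genes, TMM factors, totals without mitochondrial and rRNA genes, equal weight for clusters, other clusterings, thinned cells and, chosen after the data were seen, resolution 0.5 and other cells low in roX. The ratio script was tested on simulated data. R 4.3.3 ran Seurat 5.3.0 and edgeR 4.0.16 (TMM factors alone). The other steps ran in Python 3.11.15 (scipy 1.17.1, pandas 2.3.3, numpy 2.4.6), and figures in matplotlib 3.10.9.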

Additional observations from a re-analysis of the deposited data

Results flagged for a closer look

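CG34436, the gene with the highest ratio between RasV12 and w1118 members, went in opposite directions in the 2 genotypes: the log2 ratio of cluster 1 over the other cells was -1.94 within w1118 (4.59 against 17.6 CPM) and 1.01 within RasV12 (70.0 against 34.8 CPM). With 1 pool per genotype the difference was not tested. In all, 6 genes tested were past 2-fold in opposite directions.

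The hemocytes taken from the salivary glands, which enter no comparison above, held reads of leading genes of cluster 1. For 2 of the 12, NLaz and CREG, the level exceeded that of cluster 1 pooled over its w1118 and RasV12 members. NLaz stood at 474 CPM in 39 attached RasV12 cells (9.32, 306 and 1775 CPM as lowest, median and highest cell) and at 327 CPM in 19 attached p35;RasV12 cells, against 132 CPM in cluster 1 and 0.956 CPM in the other circulating RasV12 cells. CREG stood at 143 CPM in attached RasV12 cells, against 135 CPM in cluster 1. Set against RasV12 members alone, attached RasV12 cells were higher in NLaz (168 CPM in those members) and lower in CREG (175 CPM). Jabba stood at 192 CPM in attached RasV12 cells, above RasV12 members (173 CPM) and below w1118 members (343 CPM). Dtg stood at 55.8 CPM in attached RasV12 cells, far below cluster 1. Attached cells were collected with a micromanipulator, amplified by a modified protocol and read from both ends, so that location and method cannot be told apart.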

How the results depend on the processing

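The 24 genes named for cluster 1 against the other cells kept their direction past 2-fold under every alternative in which they passed the filter, except roX2 against cells low in roX (1.25). The naming rule had already required 1 direction in both genotypes and in the mean over cells, and no dominant cell. Those alternatives therefore largely repeat the choice of the genes and are no separate check. No paired analysis was possible because each genotype is 1 pool with no replicate numbers. Genes 2-fold higher and lower, cluster 1 against the other cells (262 and 923), became 629 and 1757 with at most 5% mitochondrial reads and 200 to 4000 genes, which left 4 members. They became 407 and 667 with TMM, 2740 and 3214 with no gene filter, 205 and 460 at 50 CPM, 69 and 319 at 4-fold, and 116 and 567 within w1118. Within w1118 (116 and 567) these numbers were 1012 and 1794 with the strict cell filter, 178 and 438 with TMM, 944 and 1852 with no gene filter, 66 and 265 at 50 CPM, and 15 and 174 at 4-fold. Within RasV12 (382 and 1139) they were 1020 and 2371, 579 and 840, 2371 and 2730, 284 and 549, and 133 and 431, in the same order. Between RasV12 and w1118 members (101 and 223) they were 1372 and 1551 with the strict cell filter (1 against 3 cells), 836 and 1013 with no gene filter, 41 and 94 at 50 CPM, and 24 and 56 at 4-fold. There Gadd45 (-3.52), CG7900 (1.25) and Cyp4ac1 (1.25) turned direction with the strict cell filter, the latter 2 at the value the floor of 3 reads gives. Of the 84 members, 84 stayed together at resolution 0.2, 60 at 0.8, 59 at 1.2, 79 with 5 principal components, 84 with 20 and 83 with 1000 variable genes, against 60 with the settings of the methods. At resolution 0.2 and with 20 components the cluster also took in 43 cells of cluster 3. The cause of these shifts was not tested, beyond the fewer or added genes and cells that the settings themselves bring. Counts from 1 pool carry no error between larvae. A gene at 1 read in a cell is near the limit of detection, and shares of cells with a read move with depth.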

Other observations

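The genes below were picked after their values had been seen and are given as values alone. Among genes of ribosome production, Nop56, a box C/D snoRNP protein, stood at 96.0 against 318 CPM in w1118 and 70.7 against 372 CPM in RasV12, Polr1A, the large subunit of RNA polymerase I, at 17.5 against 82.6 CPM in w1118 and 10.4 against 110.1 CPM in RasV12, and Myc, a transcription factor that drives ribosome production, at 26.5 against 77.6 CPM in w1118 and 31.0 against 153 CPM in RasV12.

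The glutamine synthetase Gs1 stood at 2913 against 1308 CPM in w1118 and 3286 against 293 CPM in RasV12. CG6287, a phosphoglycerate dehydrogenase of serine synthesis, stood at 474 against 215 CPM in w1118 and 469 against 18.3 CPM in RasV12, and CG11899, a phosphoserine aminotransferase of the same pathway, at 541 against 209.7 CPM in w1118 and 609.6 against 38.3 CPM in RasV12. The other glutamine synthetase, Gs2, was at 217 against 153 CPM in w1118 and 170.1 against 0.147 CPM in RasV12. In cluster 3, Gs1 stood at 1852 CPM, CG6287 at 319 CPM and CG11899 at 316 CPM. Gs2 stood at 255 CPM there, above the 199 CPM of all members. The matrix metalloprotease Mmp2 stood at 144 against 61.7 CPM in w1118 and 186 against 32.3 CPM in RasV12, and chinmo, a zinc finger gene of larval identity, at 0.841 against 47.4 CPM in w1118 and 0.265 against 275 CPM in RasV12. The secreted chitinase-like proteins Idgf6 and Idgf2 stood at 2339 against 4756 CPM in w1118 and 835 against 8717 CPM in RasV12 (Idgf6) and 28.5 against 112 CPM in w1118 and 28.9 against 321 CPM in RasV12 (Idgf2).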
